A study of Mus musculus with 5 samples.

Results

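The mitochondrially encoded genes of hematopoietic stem cells (HSCs) are described here, 37 genes in all, chosen as every gene of the deposited table whose name starts with mt-. They comprise 13 protein genes, 2 rRNAs and 22 tRNAs, out of 55335 genes in the table. Values are TPM (transcripts per 1000000), a measure corrected for gene length. Per fragment, a short gene thus gains more TPM than a long one. Values of genes as short as the tRNAs are less safely compared with those of longer genes. All 37 genes reached at least 1 TPM in at least 2 libraries and were tested. Where 3 values are set against 2, they belong to wild-type replicates 1, 2 and 3 and to RankCre-ki replicates 1 and 2, in this order.

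Bulk RNA-seq had been made from small pools of sorted bone marrow HSCs (lineage-negative, Kit+, Sca-1+, CD48-, CD150+) of mice at 3 weeks of age. The groups were wild-type (3 libraries) and RankCre-ki (2 libraries), all labelled C57BL/6J. RankCre-ki mice were Rank cre/+;Csf1r fl/-, with Cre driven by the Rank gene (Tnfrsf11a) and with a floxed and a null allele of the Csf1 receptor. Such mice lack embryonic macrophages and osteoclasts, and the comparison asks how HSCs differ when they develop without these cells. By the study's methods the null allele was kept on C3H/HeJ and the other lines on C57BL/6J, and the mothers of the last cross were Csf1r fl/fl females, which is the side from which mitochondrial DNA is inherited. Nothing in the labels says whether each library came from a separate animal, so the spread between libraries may be partly technical.

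Mitochondria carry their own circular DNA. Both of its strands are transcribed into long precursors, from which tRNAs are cut out, so that the mRNAs and rRNAs lying between them are released, and most mRNAs then receive a short poly(A) tail. The encoded proteins are core subunits of 4 respiratory complexes. Complex I (NADH dehydrogenase) takes mt-Nd1, mt-Nd2, mt-Nd3, mt-Nd4, mt-Nd4l, mt-Nd5 and mt-Nd6, complex III takes cytochrome b (mt-Cytb), complex IV (cytochrome c oxidase) takes mt-Co1, mt-Co2 and mt-Co3, and complex V (ATP synthase) takes mt-Atp6 and mt-Atp8. All other subunits are encoded in the nucleus. HSCs are known for low oxidative metabolism and a strong reliance on glycolysis.

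The values below turn on genes that overlap or that have near-identical copies, and their sequences show this. Positions and sequences are those of GENCODE M21 on build GRCm38 (mm10), given 5′ to 3′. The genes mt-Atp8 and mt-Atp6 are read from a shared mRNA and overlap by 43 bases, printed in capitals within chrM:7897-7999 on the plus strand. In the same way mt-Nd4l and mt-Nd4 share 7 bases, in capitals within chrM:10137-10203.
mt-Atp8 and mt-Atp6: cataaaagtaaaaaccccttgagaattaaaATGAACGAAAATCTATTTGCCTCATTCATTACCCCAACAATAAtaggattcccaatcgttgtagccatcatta
mt-Nd4l and mt-Nd4: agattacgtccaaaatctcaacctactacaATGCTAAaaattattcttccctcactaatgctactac

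The annotated gene ends also differ. Of the 13 protein genes, 10 end on a complete stop codon, and mt-Co3, mt-Nd4 and mt-Cytb end with 1 base (T) past the last whole codon, which the poly(A) tail completes to a stop codon. The last bases of the gene are shown with the stop, or the T, in capitals (mt-Atp6 at chrM:8584-8607, mt-Co3 at chrM:9367-9390, mt-Nd4 at chrM:11521-11544 and mt-Cytb at chrM:15265-15288, all on the plus strand).
mt-Atp6: ctatatctacatgataatacaTAA
mt-Co3: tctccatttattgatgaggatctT
mt-Nd4: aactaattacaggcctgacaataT
mt-Cytb: acaaaatactaaaattatatccaT

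Some of these genes have copies in the nucleus. On the minus strand of chromosome 1, between positions 24611535 and 24616197, 7 annotated unprocessed pseudogenes match mt- genes at 99% identity or more over at least 90% of their own length, and the tool that assigned the fragments can exchange signal between a gene and its copy. The best example is Gm10925, identical to mt-Atp6 over all of its 678 bases and without the stop codon. The last 30 bases that both share are printed for mt-Atp6 (chrM:8575-8607, plus strand, stop codon in capitals) and for Gm10925 (chr1:24613974-24614003, minus strand).
mt-Atp6: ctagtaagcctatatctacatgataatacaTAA
Gm10925: ctagtaagcctatatctacatgataataca

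The libraries differed before any group was compared. Wild-type replicate 1 and RankCre-ki replicate 2 carry names of one series (called name series 1 here), and the other 3 libraries carry names of a second (name series 2). The study's methods describe tagmentation with different kits for sets of this composition, and that each series is such a set is an inference. At least 1 TPM was found for 9021 to 11084 genes in the wild-type libraries and for 12801 and 16386 genes in the RankCre-ki libraries. RankCre-ki replicate 2 is labelled female but listed the Y-linked gene Eif2s3y at 62.5 TPM and Xist at 0.0229 TPM. Wild-type replicate 1, labelled male, had 41.6 and 0.0273 TPM of these genes, and the 3 libraries of name series 2, labelled female, had Xist at 5.16 to 22.5 TPM and Eif2s3y at no more than 0.288 TPM, so that sex by these genes and name series cannot be told apart. Csf1r was listed at 2.39, 0 and 0.234 against 17.5 and 6.46 TPM, and Tnfrsf11a, which carries the Cre, at 2.08, 0.36 and 0.0806 against 0.0811 and 1.47 TPM. A total per gene does not show which allele was transcribed. The sort genes Kit (20.4 to 145 TPM), Ly6a (47.7 to 185 TPM) and Slamf1 (16.5 to 41.8 TPM) were found in all libraries, and Cd48, whose protein the sort selects against, was at 0, 0 and 0 against 4.92 and 5.62 TPM.

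The mt- genes made up a smaller part of the RankCre-ki libraries. They took 14.7%, 21% and 16.7% of the TPM in wild-type replicates 1, 2 and 3, and 10.7% and 8.21% in RankCre-ki replicates 1 and 2. Both RankCre-ki values lay below all wild-type values. The means were 17.5% ± 3.25 (SD, n = 3) and 9.47% ± 1.78 (SD, n = 2), a difference of -7.98 percentage points. An exact two-sided permutation test gave p = 0.2, the smallest value that 3 against 2 libraries allow, so that 0.05 cannot be reached (adjusted p = 0.4 over the 8 shares compared). The difference was -6.45 points within name series 1 and -8.12 points within name series 2. Weighting each gene by its length, which approximates the share of sequenced fragments, gave 4%, 5.85% and 4.30% against 2.76% and 2.21%, a difference of -2.23 points with the same order of the groups.

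Other features of the libraries moved with this share. The RankCre-ki libraries, which had the smaller mt- shares, had the larger numbers of detected genes given above. The summed TPM of 7 erythroid markers was 147 to 217 in the wild-type and 293 and 875 in the RankCre-ki libraries. Most of the RankCre-ki sums was the globin gene Hbb-bt, at 36.2, 124 and 109 against 251 and 632 TPM. Klf1, the erythroid transcription factor, overlapped between the groups, at 1.73, 0 and 0 against 1.09 and 46.3 TPM. Between 1 and 5 of these 7 markers were at 0 in a library. The summed TPM of 6 lymphoid markers was 0.0424 to 0.492 in the wild-type and 4.64 and 19.7 in the RankCre-ki libraries, with 2 to 5 of them at 0. Of these 6 only Klrb1c, a natural killer cell receptor, passed the filter for testing, and it made up 4.4 and 12.8 TPM of the RankCre-ki sums. Sums of macrophage markers overlapped between the groups (5.95 to 53.9 against 38.3 and 54.6 TPM over 7 genes, of which 2 to 4 were at 0), as did those of neutrophil and monocyte markers (233 to 268 against 331 and 118 TPM over 7 genes, 1 to 5 at 0). Most of the latter sums was Lyz2, at 228, 268 and 250 against 311 and 103 TPM. In the same list S100a8 was at 0.0677, 0 and 0 against 8.31 and 12.9 TPM. Sums of stromal and endothelial markers were 32.2 to 36.9 against 42.4 and 48.2 TPM over 7 genes, with 1 to 3 at 0. The part of these features in the mt- share was not tested. In pooled cells, fewer cells of a type and less RNA per cell cannot be told apart.

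**Figure D1:**
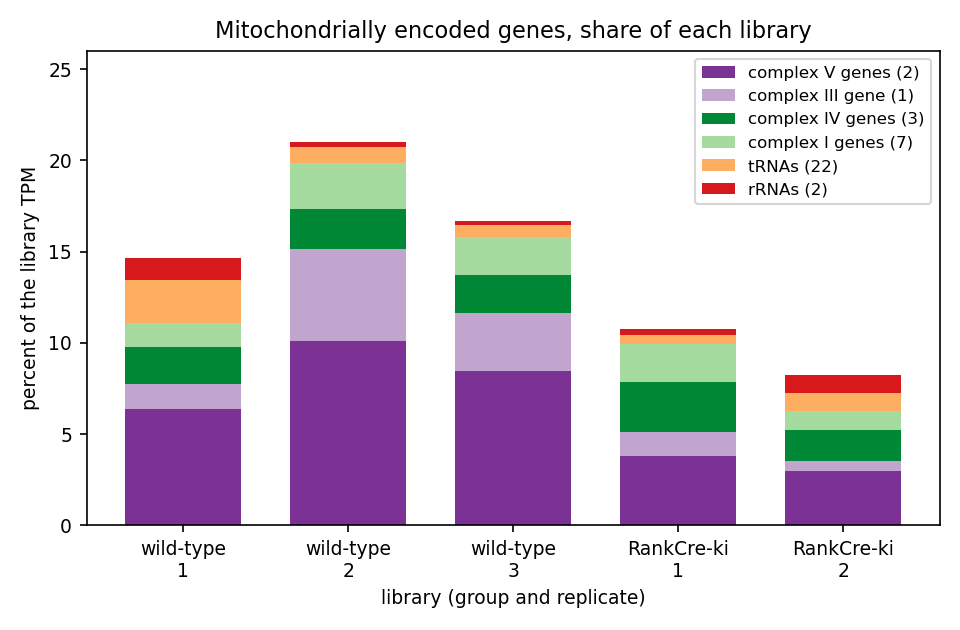
Stacked bars give the share of the mt- genes in each library (vertical axis, percent of TPM), divided into the genes of complexes V, III, IV and I, the tRNAs and the rRNAs. The 2 RankCre-ki bars end at 10.7% and 8.21%, below the 3 wild-type bars, and the tRNA and rRNA segments are widest in wild-type replicate 1 and RankCre-ki replicate 2.

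The classes of mt- RNA did not divide by genotype. Protein genes held 75.6%, 94.5% and 94.7% of the mt- TPM in wild-type replicates 1, 2 and 3, and 92.7% and 76.0% in RankCre-ki replicates 1 and 2. The rRNAs held 8.47%, 1.32% and 1.31% against 2.87% and 11.9%. The tRNAs held 16%, 4.14% and 4.02% against 4.46% and 12.1%. For each class the groups overlapped, and the pair of libraries in name series 1 stood apart from the 3 libraries of name series 2. Exact permutation tests between the genotypes gave p = 0.6 for the protein genes, p = 0.4 for the rRNAs and p = 1 for the tRNAs (adjusted p = 0.686, 0.533 and 1). The sizes of the classes depend on the correction for length. Weighted by length, the rRNAs held 15.9%, 2.28% and 2.30% against 4.94% and 21.4%. The tRNAs then held only 1.71%, 0.382% and 0.368% against 0.391% and 1.18%, and the groups again overlapped. All libraries were primed with oligo(dT), and the part of the library preparation in these shares was not tested.

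Among the protein genes, those of complex V held a smaller share and those of complexes I and IV a larger share in the RankCre-ki libraries. Complex V genes held 57.6%, 50.9% and 53.4% of the TPM of the 13 protein genes in the wild-type, and 38.2% and 48.0% in the RankCre-ki libraries. Complex IV genes held 18.5%, 11.0% and 13.3% against 27.5% and 27.6%, and complex I genes held 11.7%, 12.9% and 13.1% against 21.3% and 16.4%. In all 3 complexes both RankCre-ki libraries lay beyond all wild-type libraries, with differences of -10.9, 13.2 and 6.26 percentage points for complexes V, IV and I. Each gave p = 0.2 in the exact permutation test (adjusted p = 0.4), the smallest possible. Within name series 1 the differences were -9.53, 9.07 and 4.68 points, and within name series 2 they were -14.0, 15.3 and 8.28 points. Complex III, which is mt-Cytb alone, held 12.3%, 25.2% and 20.2% against 13.1% and 8.06%, and the groups overlapped (difference -8.64 points, exact permutation p = 0.4, adjusted p = 0.533).

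Because shares of a fixed sum are tied to each other, a lower share of one complex raises the others. The sum of complex IV genes was 20479, 21901 and 21057 against 27324 and 17191 TPM, so that the groups overlapped in level though not in share. For complex I the sums were 12931, 25570 and 20676 against 21141 and 10202 TPM, again with overlap. The sums of complex V were 63764, 101163 and 84349 against 37956 and 29958 TPM, and here both RankCre-ki libraries were lower in level and in share. Weighting by length made the groups overlap for complex V (38.2%, 29.2% and 33.8% against 22.3% and 31.7%), since the short mt-Atp8 then counts for less, and separated them for complex III (20.2%, 38.1% and 30.2% against 18.8% and 12.8%). With mt-Atp8 and mt-Nd4l left out, complex V no longer separated the groups (-8.58 points, exact permutation p = 0.4). Complex III then did (-12.8 points, exact permutation p = 0.2).

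The nuclear copies changed these shares without changing the direction of any. The 7 copies together were listed at 14268, 67035 and 36921 against 27187 and 7266 TPM. When each copy was added to its mt- gene, a setting chosen after seeing the data, complex V held 51.4%, 58.7% and 55.2% against 40.4% and 43.1%. Complex IV held 27.3%, 12.8% and 17.8% against 32.6% and 35.1%, and complex I held 10.3%, 9.62% and 10.6% against 16.7% and 14.6%. Complex III then separated as well, with 10.9%, 18.9% and 16.4% against 10.3% and 7.22%. The mt- share of the library became 16.1%, 27.7% and 20.4% against 13.5% and 8.94%, again with both RankCre-ki libraries below.

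**Figure D2:**
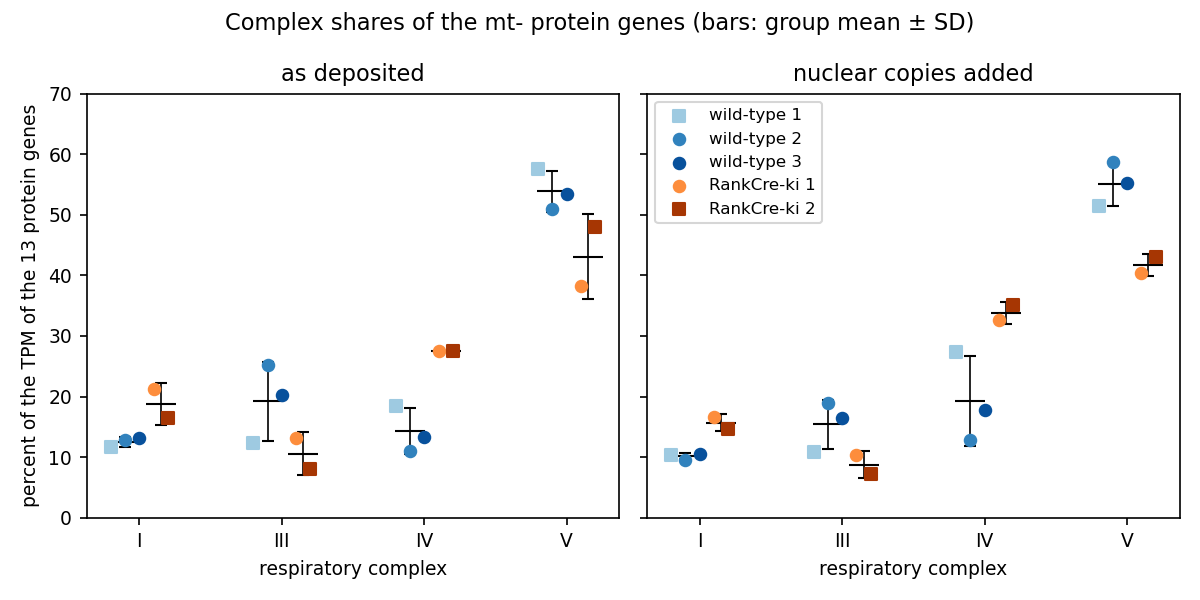
Points give, for each library, the share of a respiratory complex in the TPM of the 13 mt- protein genes (vertical axis, percent), as deposited (left) and with the nuclear copies added to their genes (right), and bars give the mean ± SD of the 3 wild-type and 2 RankCre-ki libraries. As deposited, the RankCre-ki points lie above all wild-type points for complexes I and IV, below them for complex V and among them for complex III, and with the copies added they lie below all wild-type points for complex III too.

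Single genes were read from a limma fit across all 13981 tested genes on the log2(TPM + 1) scale, with a call where adjusted p did not exceed 0.1 and the log2 fold change exceeded 2 in size. No gene of the table passed (0.0% called), and none of the 37 mt- genes did. An unadjusted limma p under 0.05 was found for 960 genes (886 with a positive and 74 with a negative fold change), and 4 of them were mt- genes (mt-Atp8, mt-Atp6, mt-Cytb and mt-Tp, all lower). The balance depended on the scaling, with 666 positive and 320 negative after median-ratio scaling and 425 and 191 after quantile normalization. On the deposited scale the whole table leaned upward, with a median log2 fold change of 0.52. This lean was not stable either, since median-ratio scaling lowered the median to 0.2 and quantile normalization turned it to -0.09. Medians of the nuclear gene lists below are given on the deposited scale only. The 13 protein genes had a median of -0.37, or -0.65 within name series 1 and -0.03 within name series 2, where the median over all tested genes was 0.53 and 0.40. Of the 13, 3 had a positive and 10 a negative log2 fold change.

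Both RankCre-ki libraries lay below all wild-type libraries for 4 of the 13 protein genes, and 3.71% of all tested genes did so. Both lay above for 2 of the 13, where the share over all tested genes was 18.8%. For the other 7 the groups overlapped. The 4 lower genes were mt-Atp8, mt-Atp6, mt-Cytb and mt-Nd2, and the 2 higher genes were mt-Co2 and mt-Nd3.

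**Figure D3:**
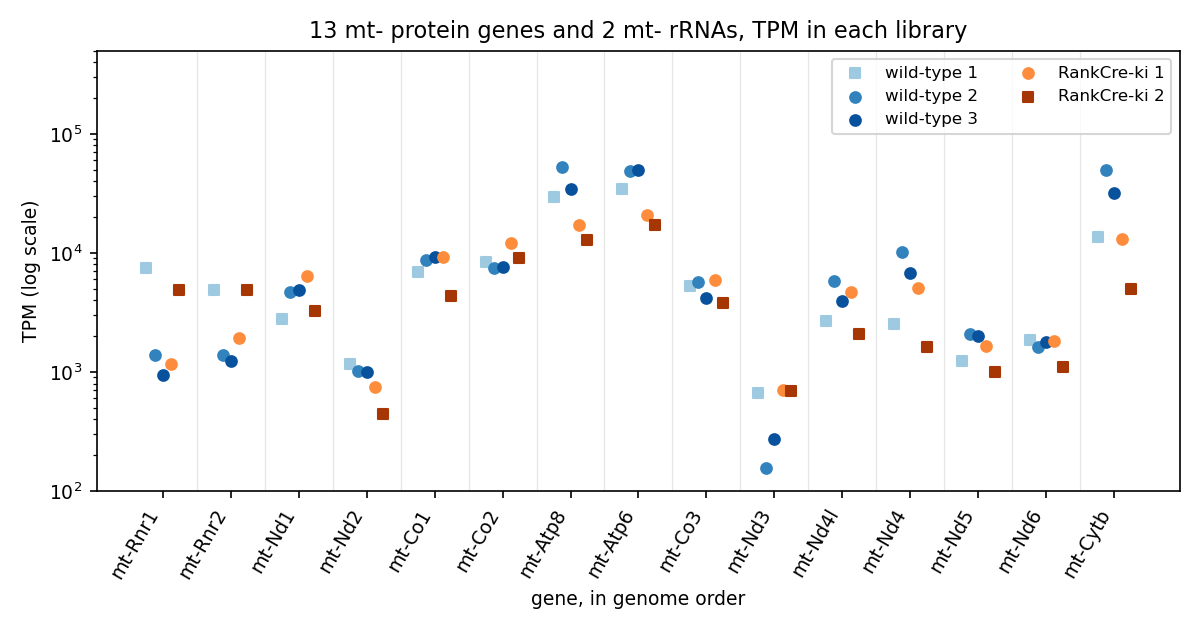
Points give the TPM (logarithmic axis) of the 13 mt- protein genes and 2 rRNAs in each of the 5 libraries, in genome order, with squares for name series 1 and circles for name series 2. The orange RankCre-ki points lie lowest for mt-Nd2, mt-Atp8, mt-Atp6 and mt-Cytb, and for both rRNAs the squares lie above the circles.

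The ATP synthase genes had the highest TPM of the mt- protein genes, except that mt-Cytb exceeded mt-Atp6 in wild-type replicate 2. The gene mt-Atp6 encodes the subunit of the membrane part of ATP synthase through which protons pass. It was listed at 34515, 48864 and 49697 against 20894 and 17089 TPM. Among all genes its rank by TPM was 1 in wild-type replicates 1 and 3 and in RankCre-ki replicate 1, 4 in wild-type replicate 2 and 2 in RankCre-ki replicate 2. Both RankCre-ki libraries were lower than all wild-type libraries, with a ratio of the means of 0.428 and a log2 fold change of -1.21 ± 0.40 (SE, limma adjusted p = 0.532). The change was -1.01 within name series 1 and -1.24 within name series 2. Quantile normalization gave 0.12. It sets each value by its rank in the library, so that a change of level without a change of rank cannot show.

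The copy of mt-Atp6 varied far more than the gene. Gm10925 was listed at 566, 54965 and 23226 against 13230 and 27.3 TPM, or 1.61%, 52.9% and 31.8% against 38.8% and 0.16% of the sum of gene and copy. It was high in the 3 libraries of name series 2 and low in the 2 libraries of name series 1. The sum was 35081, 103829 and 72922 against 34124 and 17116 TPM, still lower in both RankCre-ki libraries, with a ratio of the means of 0.363.

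The gene mt-Atp8, whose product is a small membrane subunit of the same enzyme, was listed at 29249, 52299 and 34652 against 17061 and 12869 TPM. The groups did not overlap, and the ratio of the means was 0.386, with a log2 fold change of -1.34 ± 0.43 (SE, limma adjusted p = 0.521). Within the name series it was -1.18 and -1.32. After quantile normalization, which sets values by rank, it was -0.21, and mt-Atp8 ranked 3, 2 and 2 against 2 and 4 among all genes. As mt-Atp8 and mt-Atp6 come from the same mRNA, their ratio is of interest, and it was 0.847, 1.07 and 0.697 in the wild-type and 0.817 and 0.753 in the RankCre-ki libraries. With Gm10925 added to mt-Atp6 the ratio was 0.504, 0.475 and 0.50 in the libraries of name series 2, and 0.834 and 0.752 in those of name series 1. In neither form did the ratio separate the genotypes.

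Cytochrome b, the electron-carrying core of complex III, showed the lowest log2 fold change of the 13. It was listed at 13604, 50134 and 31932 against 13062 and 5028 TPM. RankCre-ki replicate 1 lay just under wild-type replicate 1, and the wild-type values themselves spread widely (mean 31890 ± 18265, SD, n = 3). The log2 fold change was -1.78 ± 0.65 (SE, limma adjusted p = 0.576), -1.44 and -1.61 within the name series and -1.11 after quantile normalization. Leaving out single libraries gave values from -2.47 to -1.10.

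Complex IV genes differed among themselves. The subunit mt-Co2, which holds a copper centre that accepts electrons from cytochrome c, was listed at 8351, 7416 and 7689 against 12102 and 9062 TPM, both above all wild-type libraries. Its log2 fold change of 0.42 ± 0.36 (SE, limma adjusted p = 0.932) was below the median of all tested genes, and median-ratio scaling gave -0.03 where quantile normalization gave 0.72. Its copy Gm28661 reached 2213 TPM in RankCre-ki replicate 1 and 543 TPM in wild-type replicate 3, and no more than 15.5 TPM in the others. The sum was 8351, 7432 and 8232 against 14315 and 9063 TPM, with both RankCre-ki libraries still above.

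The catalytic subunit mt-Co1 was listed at 6873, 8791 and 9179 against 9257 and 4355 TPM, which lay above and below all wild-type values. Its copy Gm29216 corresponds to the end of the gene (99.793% identity over 483 bases) and was listed above mt-Co1 itself in all 5 libraries, at 13693, 12054 and 10878 against 9825 and 6931 TPM. The ratio of copy to gene ran from 1.06 to 1.99. The sum of gene and copy was 20566, 20846 and 20057 against 19082 and 11286 TPM, so that with the copy both RankCre-ki libraries lay below all wild-type libraries.

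The third subunit, mt-Co3, was listed at 5256, 5693 and 4189 against 5964 and 3775 TPM. The groups overlapped, and its log2 fold change was -0.08 ± 0.39 (SE, limma adjusted p = 0.993). Its copy Gm28437, identical over 783 bases, ranged from 5.71e-05 TPM in wild-type replicate 2 to 2274 TPM in wild-type replicate 3. RankCre-ki replicates 1 and 2 had 1919 and 306 TPM of it, and wild-type replicate 1 had 9.36 TPM. A value as low as the first cannot come from a whole fragment.

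Complex I genes had the widest range. The lowest of the 13 protein genes in all libraries but 1 was mt-Nd3, a small membrane subunit, at 666, 155 and 272 against 702 and 698 TPM. Both RankCre-ki libraries were higher, but wild-type replicate 1 was close to them, and the change was 0.07 within name series 1 and 1.77 within name series 2. The fit gave a log2 fold change of 1.20 ± 0.61 (SE, limma adjusted p = 0.841). The proton-pumping subunit mt-Nd2 went the other way, with 1159, 1011 and 1001 against 745 and 446 TPM. Its wild-type libraries were close to each other, and its log2 fold change was -0.87 ± 0.39 (SE, limma adjusted p = 0.747), or -1.38 and -0.43 within the name series and -1.32 after median-ratio scaling. In RankCre-ki replicate 2 it was the lowest of the 13.

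The other 5 complex I genes overlapped between the groups. The membrane subunit mt-Nd1 was listed at 2810, 4694 and 4838 against 6414 and 3253 TPM. For mt-Nd4 the values were 2541, 10180 and 6798 against 5125 and 1616 TPM, and for mt-Nd4l they were 2684, 5827 and 3953 against 4708 and 2089 TPM. In both groups the library of name series 1 was the lowest for these 3 genes. The ratio of mt-Nd4l to mt-Nd4, which are read from a shared mRNA, was 1.06, 0.572 and 0.582 in the wild-type and 0.919 and 1.29 in the RankCre-ki libraries.

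The proton-pumping subunit mt-Nd5 was listed at 1228, 2084 and 2022 against 1642 and 1006 TPM. For mt-Nd6, the only protein gene on the minus strand, the values were 1843, 1618 and 1793 against 1804 and 1094 TPM. The 4 libraries other than RankCre-ki replicate 2 lay close together for mt-Nd6. These genes overlap by 14 bases on opposite strands, and protocols of this kind do not mark the strand of a fragment, so that signal in the overlap cannot be assigned. The log2 fold changes of the 5 overlapping genes ran from -0.96 (mt-Nd4) to 0.19 (mt-Nd1), with limma adjusted p from 0.909 to 0.991.

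As shares of the 13 protein genes, 8 of the 10 genes of complexes I and IV, all but mt-Nd2 and mt-Nd4, were higher in both RankCre-ki libraries. With the nuclear copies added, 6 of the 10 were. Shares of a fixed sum move together, so these are not separate observations, and such shares have no counterpart over all tested genes. In level, only mt-Co2 and mt-Nd3 of the 10 lay above, where 18.8% of all tested genes did. The share of mt-Nd1 was 2.54%, 2.36% and 3.06% in the wild-type and 6.45% and 5.21% in the RankCre-ki libraries. For mt-Co3 it was 4.74%, 2.86% and 2.65% against 6.00% and 6.05%.

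**Figure D4:**
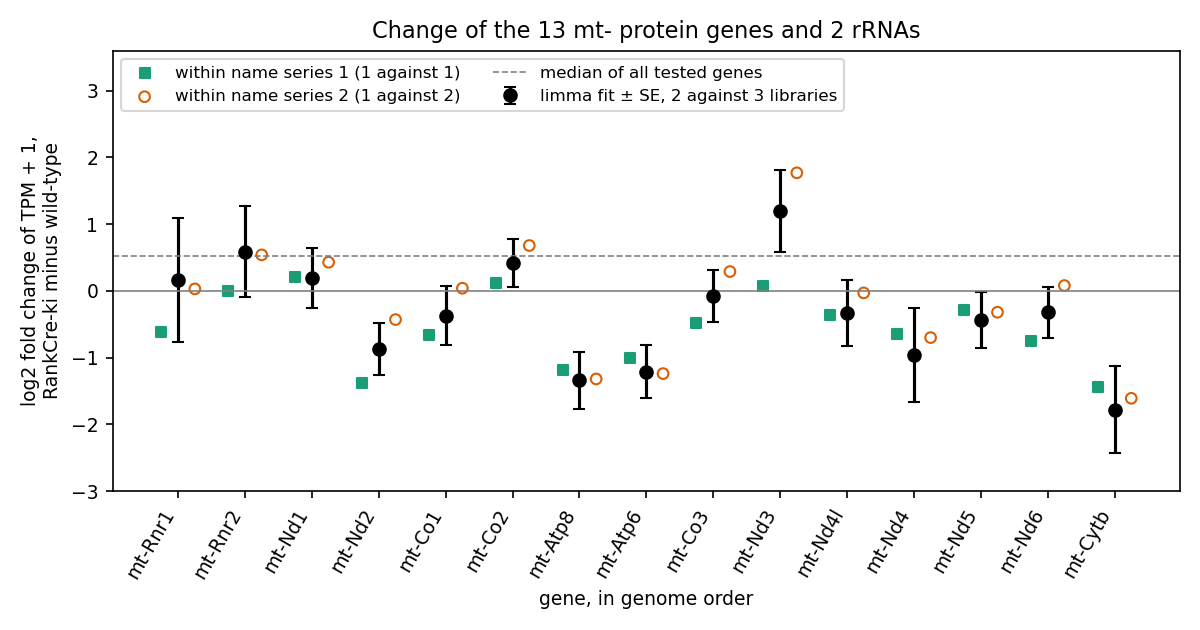
Black points give the log2 fold change of TPM + 1 (RankCre-ki minus wild-type) with its SE from limma for the 13 mt- protein genes and 2 rRNAs, in genome order, squares and open circles give the change within name series 1 and 2, and the dashed line marks the median of all tested genes at 0.52. For mt-Atp8, mt-Atp6, mt-Cytb and mt-Nd2 all 3 values lie below 0. Quantile normalization, which sets values by rank and is not plotted, gave 0.12 for mt-Atp6. For mt-Rnr1 the square and the circle lie on different sides of 0.

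The rRNAs, which form the mitochondrial ribosome with proteins from the nucleus, followed the name series. The small-subunit rRNA mt-Rnr1 was listed at 7528, 1377 and 947 against 1164 and 4887 TPM. The large-subunit rRNA mt-Rnr2 was listed at 4896, 1393 and 1240 against 1917 and 4897 TPM. For both genes the 2 libraries of name series 1 were the highest, and the groups overlapped. The log2 fold changes were 0.16 ± 0.93 and 0.59 ± 0.68 (SE, limma adjusted p = 0.993 and 0.963). For mt-Rnr1 the sign changed with the setting, to -0.25 with the name series as a block.

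Few tRNA genes carried most of the tRNA signal. As the strand of a fragment is not marked, fragments over a tRNA gene may come from longer precursors or from RNA of the opposite strand. The values are signal at the gene and need not be levels of the tRNA itself. The minus-strand genes mt-Ts1, mt-Tp and mt-Tq, which read serine, proline and glutamine codons, held 90.7%, 92.5% and 89.6% of the tRNA TPM in the wild-type and 86.3% and 80.7% in the RankCre-ki libraries. All minus-strand tRNAs together summed to 22216, 8303 and 6319 against 4398 and 9162 TPM, and the plus-strand tRNAs to 1202, 393 and 393 against 394 and 806 TPM. Their sequences are given because each abuts a gene on the plus strand, and capitals mark bases shared with that neighbour on the opposite strand (mt-Ts1 at chrM:6870-6938 with the end of mt-Co1, mt-Tq at chrM:3772-3842 with mt-Ti). The third, mt-Tp at chrM:15356-15422, follows mt-Tt and shares no base.
mt-Ts1: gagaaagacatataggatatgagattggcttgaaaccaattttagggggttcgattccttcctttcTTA
mt-Tp: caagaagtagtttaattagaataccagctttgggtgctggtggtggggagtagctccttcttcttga
mt-Tq: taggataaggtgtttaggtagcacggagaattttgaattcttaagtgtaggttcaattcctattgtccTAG

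For mt-Ts1 the values were 11110, 3082 and 2960 against 2593 and 4820 TPM. The 2 libraries of name series 1 were the highest, and its ratio to mt-Co1, whose end it adjoins on the other strand, was 1.62 and 1.11 there and 0.28 to 0.351 in name series 2. The log2 fold change was -0.40 ± 0.64 (SE, limma adjusted p = 0.986). For mt-Tq the values were 3021, 236 and 134 against 111 and 1206 TPM, again highest in name series 1, and its log2 fold change was -0.32 ± 1.40 (SE, limma adjusted p = 0.992).

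The signal at the proline tRNA gene mt-Tp differed from these. It was listed at 7119, 4727 and 2920 against 1433 and 2023 TPM, both below all wild-type libraries and in both name series (-1.81 and -1.37). The log2 fold change was -1.44 ± 0.46 (SE, limma adjusted p = 0.521). The methionine tRNA mt-Tm was the only other tRNA with both RankCre-ki libraries below, at 174, 126 and 94.0 against 53.6 and 66.2 TPM, and its log2 fold change was -1.08 ± 0.51 (SE, limma adjusted p = 0.794). That makes 2 of 22 tRNAs below, beside 3.71% of all tested genes, and 0 of 22 above.

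Some of the tRNA values could be brought back to fragments. Within the tRNAs of 67 bases and within those of 69 bases, 11 genes in all, the 55 values were whole multiples of 1 step per library, to within 0.01 of a step. A step, read here as the value of 1 fragment, was 1.27 to 1.37 TPM in wild-type replicate 1 and 2.17 to 2.81 TPM in the other libraries. On this reading mt-Tp rested on 5203, 2059 and 1041 fragments in the wild-type and on 567 and 794 in the RankCre-ki libraries, and its exact 95% Poisson interval was 2745 to 3103 TPM in the lowest wild-type library and 1884 to 2168 TPM in the highest RankCre-ki library. For mt-Tm the counts were 137, 58 and 35 against 22 and 28 fragments, and the intervals of wild-type replicate 3 (65.5 to 131 TPM) and RankCre-ki replicate 2 (44.0 to 95.6 TPM) overlapped. Such intervals cover the counting of fragments only. The reads carry no molecular identifiers, so that fragments amplified from the same molecule are counted separately, and the intervals may be too narrow for molecules.

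The remaining tRNAs were listed at no more than 484 TPM, and for each of them the groups overlapped. The histidine tRNA mt-Th had 9, 0 and 1 fragments in the wild-type and 0 and 11 in the RankCre-ki libraries, and the count of 0 allows, taken as up to 3 fragments, 6.89 TPM in wild-type replicate 2 and 7.58 TPM in RankCre-ki replicate 1. The valine tRNA mt-Tv, which lies between the rRNA genes, was listed at 63.6, 2.17 and 0 against 12.2 and 59.1 TPM, where 0 allows up to 8.06 TPM by the same limit of 3 fragments. The phenylalanine tRNA mt-Tf, at the start of the same precursor, was listed at 86.2, 2.21 and 0 against 7.44 and 71.3 TPM. In all 3 the libraries of name series 1 were the highest. The leucine tRNA mt-Tl1, which follows the rRNA genes, did not share this order, with 42.2, 49.0 and 99.9 against 118 and 44.3 TPM.

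Further tRNAs at 10 TPM or more in at least 2 libraries were, among those on the minus strand, mt-Tc (cysteine) at 351, 87.1 and 43.2 against 67.1 and 484 TPM, mt-Te (glutamate) at 424, 71.7 and 118 against 107 and 196 TPM, and mt-Ta (alanine) at 91.6, 45.6 and 43.0 against 46.3 and 234 TPM. The asparagine tRNA mt-Tn had 55.9, 37.3 and 75.8 against 32.4 and 116 TPM, and the tyrosine tRNA mt-Ty had 43.8, 16.1 and 25.2 against 7.58 and 84.1 TPM. In each of these 5 the groups overlapped. On the plus strand the threonine tRNA mt-Tt, next to mt-Cytb, had 346, 108 and 56.1 against 75.8 and 206 TPM.

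Lysine tRNA (mt-Tk), which lies between mt-Co2 and mt-Atp8, had 85.2, 33.9 and 43.3 against 47.3 and 38.7 TPM. Tryptophan tRNA (mt-Tw) had 52.0, 34.4 and 36.5 against 17.7 and 43.3 TPM, and isoleucine tRNA (mt-Ti) had 53.5, 15.2 and 0 against 17.0 and 54.3 TPM. Glycine tRNA (mt-Tg) had 54.4, 17.7 and 24.9 against 19.8 and 76.2 TPM. All of them overlapped between the groups.

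Aspartate tRNA (mt-Td) had 84.7, 2.13 and 2.62 against 14.1 and 48.1 TPM, and arginine tRNA (mt-Tr) had 61.0, 2.21 and 27.6 against 7.44 and 14.7 TPM. The second serine tRNA, mt-Ts2, had 75.5, 0 and 0 against 2.96 and 41.6 TPM, and the second leucine tRNA, mt-Tl2, had 10.7, 0 and 5.05 against 0 and 13.4 TPM. Again the groups overlapped for each gene.

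**Figure D5:**
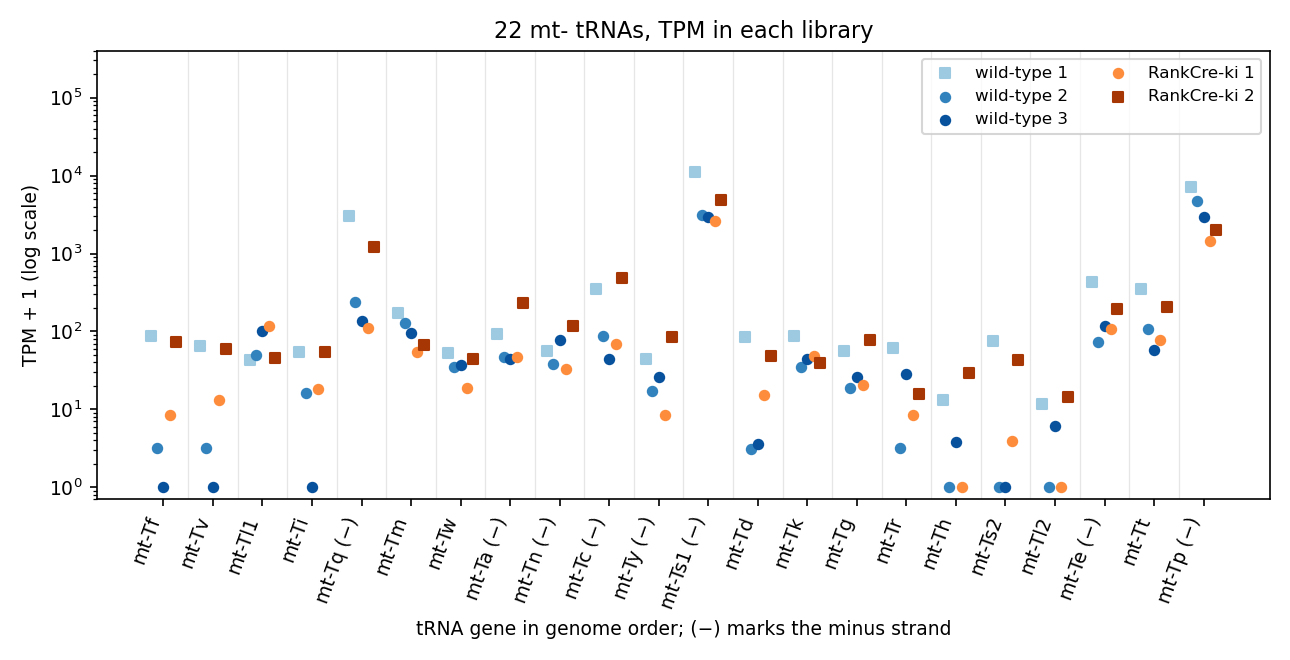
Points give TPM + 1 (logarithmic axis) of the 22 mt- tRNAs in each library, in genome order, with (−) for genes on the minus strand, squares for name series 1 and circles for name series 2. The 3 tRNAs mt-Tq, mt-Ts1 and mt-Tp stand above the others in wild-type replicate 1, where they reach 3021, 11110 and 7119 TPM, and only for mt-Tm and mt-Tp do both RankCre-ki points lie below all wild-type points.

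The partners of these proteins that are encoded in the nucleus were read in the same fit. Of 77 nuclear subunits of complexes I to V, 0 passed the threshold, 14 had both RankCre-ki libraries below and 8 had both above all wild-type libraries, where 3.71% of all tested genes lay below and 18.8% above. Their median log2 fold change was -0.03 beside 0.52 for all tested genes. Complex I accounted for 11 of the 14 below, out of its 36 subunits (median -0.30). Its members with the smallest p were the accessory subunits Ndufa12, at 1019, 1291 and 1029 against 523 and 393 TPM, and Ndufb8, at 644, 907 and 973 against 445 and 187 TPM (limma adjusted p = 0.521 for both). Complex II, which has no mitochondrially encoded subunit, had 0 of 4 below and 1 above, where 18.8% of all tested genes lay above. Its values were, for Sdhb, its iron-sulfur subunit, 251, 680 and 659 against 292 and 145 TPM and, for Sdhc, a membrane anchor, 76.7, 67.7 and 79.3 against 100 and 108 TPM.

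The nuclear lists of the other complexes had medians of -0.20 (complex III, 9 genes), 0.06 (complex IV, 11 genes) and 0.17 (complex V, 17 genes). In complex V, 5 of 17 had both RankCre-ki libraries above and 0 below (18.8% and 3.71% of all tested genes). The alpha subunit Atp5a1 was listed at 91.9, 216 and 270 against 470 and 346 TPM, and Atp5g2, a subunit of the proton-driven ring, at 79.0, 118 and 221 against 489 and 204 TPM (limma adjusted p = 0.763 and 0.782). In complex IV, Cox7b lay below (log2 fold change -0.71) and Cox6a1 above (0.85) in both RankCre-ki libraries. In complex III, Uqcrq lay below (-0.57) and the iron-sulfur protein Uqcrfs1 overlapped (0.77).

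Set against their nuclear partners, the mt- genes of complex V alone separated the groups. The ratio of mt- to nuclear TPM in complex V was 6.93, 14.5 and 11.4 in the wild-type and 4.82 and 3.28 in the RankCre-ki libraries. For complex I it was 1.05, 2.18 and 1.78 against 2.46 and 1.16, for complex III 2.70, 14.2 and 8.69 against 4.2 and 1.18, and for complex IV 2.90, 3.66 and 3.80 against 5.11 and 2.28, all with overlap. No test was run on these ratios.

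Genes of the machinery that makes and handles mt- RNA did not pass the threshold either. Of 17 genes of mitochondrial transcription and DNA maintenance, 4 lay above and 1 below, near the 18.8% and 3.71% of all tested genes, with a median log2 fold change of 0.04 beside 0.52 for all tested genes. The gene below was Mterf1a, a mitochondrial transcription termination factor, at 60.4, 64.7 and 24.3 against 16.7 and 8.68 TPM (log2 fold change -1.84 ± 0.79, SE, limma adjusted p = 0.725). The rRNA methyltransferase Tfb1m was listed at 4.4, 0.065 and 9.76 against 15.9 and 21.5 TPM. Of 25 genes of mitochondrial RNA processing, polyadenylation and decay, 8 lay above and 1 below, beside 18.8% and 3.71% of all tested genes, and their median was 0.80 beside 0.52. The gene below was Hsd17b10, a subunit of the enzyme that cuts the 5′ ends of mt- tRNAs, at 686, 640 and 565 against 328 and 327 TPM (log2 fold change -0.94 ± 0.37, SE, limma adjusted p = 0.633). The RNA-binding protein Ptcd1 was listed at 0, 0 and 0 against 8.32 and 4.87 TPM.

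Of 7 regulators of mitochondrial biogenesis, 6 were tested, and 2 of them lay above, beside 18.8% of all tested genes (median 0.64 beside 0.52). These were the transcription factor Nrf1, at 1.46, 0.437 and 24 against 31.5 and 33.2 TPM, and the coactivator Pprc1, at 0.478, 0.0707 and 6.47 against 11.0 and 19.6 TPM (limma adjusted p = 0.835 for both).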

How the data were processed

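Bulk RNA-seq of sorted HSCs was analysed in 3 wild-type and 2 RankCre-ki libraries, grouped by their labels. The authors deposited TPM per gene in a table of 55427 rows, of which 92 spike-in rows, at 0 throughout, were left out. The submitters' processing notes name build mm10, bcl2fastq 2.20.0 and featureCounts 2.0.1, and the tool that made the TPM is not given in the sources used here. Since positive values go down to 1.13e-10 TPM, fragments were shared among transcripts by estimation, and copies or overlapping genes can exchange signal. TPM records no sequencing depth.

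Positions and sequences came from GENCODE M21 (GRCm38), which held 55154 (99.7%) of the gene identifiers. Nuclear copies were found with blastn 2.17.0 (at least 90% identity over 50 bases, 18 genes). limma 3.58.1 in R 4.3.3 (lmFit, eBayes with trend, two-sided) was run on log2(TPM + 1) for genes that reached 1 TPM in 2 or more libraries, with Benjamini-Hochberg adjustment and no covariate. A gene was called where its adjusted p did not exceed 0.1 and its log2 fold change exceeded 2 in size. A fold change on this scale understates the change of low genes. The code was tested on simulated data. Shares were compared by exact two-sided permutation tests (SciPy 1.17.1). Alternatives changed the pseudocount, filter, scaling, variance model, blocks, weights and libraries.

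The text names all mt- genes, the nuclear copies at 10 TPM or more in a library, label checks, and the 2 genes with the smallest p in each pathway list. The members and lists were chosen with earlier results of these data known.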

Additional observations from a re-analysis of the deposited data

How the results depend on the processing

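No mt- gene was called under any alternative. The number of genes called across the whole table was 0 under the others and ranged from 0 to 304 when single libraries were left out. It was 304 without RankCre-ki replicate 1, all higher in RankCre-ki, where the lone RankCre-ki library is assumed to vary like the wild-type, and 1 (Gm15920) without wild-type replicate 1. It was 1 with the replicate block, and that gene was Gm28437, the copy of mt-Co3 (both named after their values were seen). Replicate numbers are shared by the groups, but same-numbered libraries did not deviate together (r = -0.38 and -0.195), so they share only a number. The median log2 fold change of the 13 protein genes, -0.37, was -0.32 with the replicate block, -0.82 after median-ratio scaling, -0.45 after quantile normalization and -0.92 to 0.05 with single libraries left out, and its sign turned without RankCre-ki replicate 2. Its distance from the median of all tested genes, -0.89, ran from -0.36 (quantile normalization) to -1.53 (without RankCre-ki replicate 1). All results on the mt- share of the library and on complexes I, III, IV and V kept their direction. For complex V the groups overlapped after weighting by length and with mt-Atp8 and mt-Nd4l left out. With single libraries left out the differences ran from -9.38 to -6.20 points for the mt- share, from 3.81 to 8.71 for complex I, from -12.1 to -5.65 for complex III, from 11.6 to 15.3 for complex IV and from -15.8 to -5.92 for complex V.

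Directions turned for some results, and the cause was not tested. Within name series 1 the difference in the share of mt- TPM was 0.397 points for protein genes and -3.84 for tRNAs, and weighting by length gave -0.0371 for tRNAs. With single libraries left out it ran from -12.3 to 4.41 for protein genes, from -0.83 to 8.21 for rRNAs and from -3.58 to 4.22 for tRNAs. Of 285 pairs of gene and alternative, 23 had a log2 fold change of the other sign, in 11 of 19 genes. After median-ratio scaling these were mt-Nd1 (-0.26), mt-Co2 (-0.03) and mt-Rnr1 (-0.29), and after quantile normalization mt-Nd1 (-0.03), mt-Atp6 (0.12) and mt-Rnr1 (-0.13). Quantile normalization sets values by rank, and mt-Atp6 ranked 1, 4 and 1 against 1 and 2, so that its change of level cannot show there. For mt-Rnr1 the value was -0.43 with the replicate block and -0.25 with the name series as a block. With single libraries left out, the log2 fold change ran from -0.30 to 0.68 for mt-Nd1, -0.92 to 0.17 for mt-Co1, -0.41 to 0.25 for mt-Co3, -0.92 to 0.25 for mt-Nd4l, -0.68 to 0.05 for mt-Nd6, -0.88 to 1.19 for mt-Rnr1, -0.09 to 1.26 for mt-Rnr2, -0.85 to 0.23 for mt-Ts1 and -2.03 to 1.39 for mt-Tq. Sizes also moved where the sign held, from 0.21 to 0.63 for mt-Co2, 0.72 to 1.76 for mt-Nd3, -1.24 to -0.50 for mt-Nd2 and -1.79 to -0.13 for mt-Nd4.

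With 3 and 2 libraries no share can reach an exact p of 0.05, and in low tRNAs a value rests on few fragments.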
